A study of Rattus norvegicus with 20 samples.

Results

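Expression of proteasome genes was followed in the prefrontal cortex and nucleus accumbens of rats given low-iron or standard food as juveniles. Members were all genes in the authors' deposited comparison tables whose rat symbol begins with Psma, Psmb, Psmc, Psmd, Psme, Psmf or Psmg followed by a digit. The rule matched 48 of 18288 RefSeq accessions, 1 accession for each symbol. Of these, 47 encode proteasome subunits, regulators or assembly factors, and Psmc3ip, a recombination cofactor, matched by name only and is left out of the counts here. The 47 comprised 8 alpha and 7 beta subunits of the core, 4 inducible or tissue-restricted beta subunits, 6 ATPases and 11 other subunits of the regulatory particle, 3 assembly factors of that particle, 5 activators or inhibitors and 3 assembly factors of the core.

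The libraries came from male rats of the inbred strain Fischer344/Jcl. Cortex and accumbens were each sampled from animals on the standard AIN-93G diet and from animals on a low-iron diet, both given from day 21 to day 39 of age, with tissue taken in week 13. Low-iron animals were therefore sampled long after the diet ended. Each of the 4 groups held 5 libraries of poly(A) RNA from dissected tissue. Whether the 5 libraries of a group were taken from different animals is not given in the labels. The p-values therefore rest on the variation among libraries, part of which may be technical. In bulk tissue, fewer cells of a type and less RNA per cell cannot be told apart.

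The proteasome degrades proteins tagged with ubiquitin. Its core is a barrel of alpha rings around beta rings, whose catalytic beta subunits cut the protein, and the regulatory particle caps the barrel, binds ubiquitin and uses ATPases to unfold and feed in the substrate. Interferon induces alternative catalytic subunits (Psmb8, Psmb9 and Psmb10) that replace Psmb5, Psmb6 and Psmb7 to form the immunoproteasome, which makes peptides for class I antigen presentation. Neurons use the proteasome for protein turnover at synapses, and most immunoproteasome in the brain is associated with glia and immune activation.

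Promoter sequence was available from RefSeq (assembly GRCr8) for 42 of the 47 genes, as the 250 bases before each start. Searches on both strands covered 3 motifs. They were TGACNNNGC, the core of the antioxidant response element, CCAAT, and an interferon-type element that reads GAAA, any 2 bases, GAAA. The windows below are shown for the genes on which the results turn, with every match in capitals on either strand. Psmb10 and Psme2 are interferon-inducible, Psmb9 shares its promoter region with Tap1, Psmb5 and Psme4 hold an antioxidant-type match, and Psmc3 was the ATPase that differed most clearly between regions.
Psmb10, chr19:50743293-50743542, minus strand: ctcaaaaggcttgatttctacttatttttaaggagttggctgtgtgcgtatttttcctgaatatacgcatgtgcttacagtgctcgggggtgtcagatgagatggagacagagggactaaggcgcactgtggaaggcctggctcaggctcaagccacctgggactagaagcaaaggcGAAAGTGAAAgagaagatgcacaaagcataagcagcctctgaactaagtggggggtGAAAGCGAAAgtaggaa
Psme2, chr15:33052752-33053001, minus strand: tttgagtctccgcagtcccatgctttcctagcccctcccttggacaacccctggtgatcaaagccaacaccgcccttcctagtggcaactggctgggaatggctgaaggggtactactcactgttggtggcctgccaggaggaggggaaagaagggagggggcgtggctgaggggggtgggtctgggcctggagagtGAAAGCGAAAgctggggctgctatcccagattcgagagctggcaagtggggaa
Psmb9, chr20:4668750-4668999, plus strand: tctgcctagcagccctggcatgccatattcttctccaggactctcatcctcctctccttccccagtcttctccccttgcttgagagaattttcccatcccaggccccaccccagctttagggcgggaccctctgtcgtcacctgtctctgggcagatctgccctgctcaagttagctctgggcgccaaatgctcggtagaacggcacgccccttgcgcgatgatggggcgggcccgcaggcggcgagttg
Psmb5, chr15:32047380-32047629, minus strand: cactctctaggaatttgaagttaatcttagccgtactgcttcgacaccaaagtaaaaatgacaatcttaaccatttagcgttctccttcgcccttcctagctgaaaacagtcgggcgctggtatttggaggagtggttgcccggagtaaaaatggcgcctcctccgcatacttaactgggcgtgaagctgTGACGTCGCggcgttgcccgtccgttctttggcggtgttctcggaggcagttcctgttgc
Psme4, chr14:108706393-108706642, plus strand: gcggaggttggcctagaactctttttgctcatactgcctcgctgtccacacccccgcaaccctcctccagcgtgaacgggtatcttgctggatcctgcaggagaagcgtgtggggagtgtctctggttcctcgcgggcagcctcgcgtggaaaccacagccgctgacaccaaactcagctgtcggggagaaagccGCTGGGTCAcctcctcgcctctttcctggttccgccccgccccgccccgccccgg
Psmc3, chr3:97487393-97487642, plus strand: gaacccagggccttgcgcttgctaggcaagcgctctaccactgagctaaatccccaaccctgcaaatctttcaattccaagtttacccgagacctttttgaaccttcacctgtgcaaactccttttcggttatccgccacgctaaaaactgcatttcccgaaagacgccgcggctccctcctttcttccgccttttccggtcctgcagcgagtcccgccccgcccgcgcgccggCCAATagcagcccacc

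The interferon-type motif lay in 5 of the 42 windows (11.9%), against 3.29% of 27457 rat promoters of the same length. Psmb10 held 2 copies, 73 and 17 bases before the start, and Psme2 held 1 copy 53 bases before it. The other windows with a match were those of Psma4, Psmb3 and Psmd7, which encode constitutive subunits. Psmb9 held no match to any of the 3 motifs, and its 300-base window shared 44 bases with that of Tap1 on the opposite strand. The antioxidant-type motif lay in 7 of 42 windows (16.7%), against 10.2% of all promoters, including those of Psmb2, Psmb5 and Psmb6 among the core beta subunits. CCAAT lay in 19 of 42 (45.2%), against 34.3%. A match describes letters in a window and is not evidence of binding, and in 1 window matches to 2 of the motifs overlapped.

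The libraries held between 4.34 and 12.97 M reads assigned to genes, and proteasome genes took about the same share of them in each group, with group medians of 0.437 to 0.457%. Accumbens libraries were shallower after the low-iron diet (5.13 M ± 0.696, SD, n = 5) than on the standard diet (7.19 M ± 1.35). Dissections matched their labels by marker sums: striatal projection neuron markers reached 3478 to 6317 CPM (counts relative to library size, scaled by TMM) in accumbens and 352 to 393 in cortex. One cortex library on the standard diet, replicate 4, stood apart. Its 8 meninges markers summed to 1328 CPM, against 123 to 244 in the other 4 of its group, and its cortical glutamatergic markers to 1623, against at least 2478. In accumbens on the standard diet, replicate 4 had a cortical glutamatergic sum of 432 CPM, against at most 33.6 in the others. Several results that rest on these libraries are also given without them, or with the range over fits that left out 1 library.

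Of the 47 genes, 45 passed the filter on low counts in both region comparisons. Psmb6, the constitutive caspase-like catalytic subunit, had 11 reads in all 20 libraries and was not tested. Its accession also carries a second symbol, and the annotated copy Psmb6l1 had 30 reads. The catalytic subunits Psmb5 and Psmb7 had 16162 and 22354 reads in the same libraries. Why Psmb6 had so few was not tested, so its count is not read as its expression level. Psma8, the testis form of an alpha subunit, had 30 reads in standard-diet cortex and 27 in low-iron cortex, against 2 and 0 in accumbens. Its levels ran from 0.323 to 1.03 CPM in cortex and from 0 to 0.142 in accumbens, so the regions did not overlap, but all values were close to the limit of 3 reads that a library with none allows (0.231 to 0.691 CPM). In the reference annotation 19 of the 48 members have numbered pseudogenes, among them Psmb7, Psme1, Psme2, Psme3 and Psmg4, whose reads may be split between copies.

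Where proteasome genes differed between regions, most were lower in accumbens, and by modest amounts. On the standard diet, edgeR called 14 of 45 genes at an adjusted p under 0.05, 4 higher and 10 lower in accumbens, a share of 31.1% against 47% of all accessions tested (23% higher and 24% lower). The median absolute log2 fold change was 0.09 for proteasome genes and 0.24 for all accessions. After the low-iron diet 28 of 45 were called, 5 higher and 23 lower, or 62.2% against 59.1% of all accessions (30.1% higher and 29% lower). The groups did not overlap for 7 genes on the standard diet and 21 after the low-iron diet, against 33.3% and 44.7% of all accessions. Calls on the standard diet numbered 8 to 18 when 1 library was left out. There were 8 without cortex replicate 3, cortex replicate 5 or accumbens replicate 5, and 9 without cortex replicate 1. In the same order, 4906 of 11665, 5093 of 11708, 5006 of 11694 and 4957 of 11666 accessions were called. There were 18 without cortex replicate 4, where Psmd3, Psmd4, Psmd7 and Psme2 were added. In that fit 6294 of 11647 accessions were called. Upper-quartile scaling left 15 lower calls after the low-iron diet, where 2955 of 11220 accessions were called lower. All 14 genes called on the standard diet were called again, in the same direction, in the separate low-iron libraries. They made up 50% of the low-iron calls. For all accessions, 89.2% of standard-diet calls recurred with the same sign, or 73.5% of the low-iron calls.

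**Figure D1:**
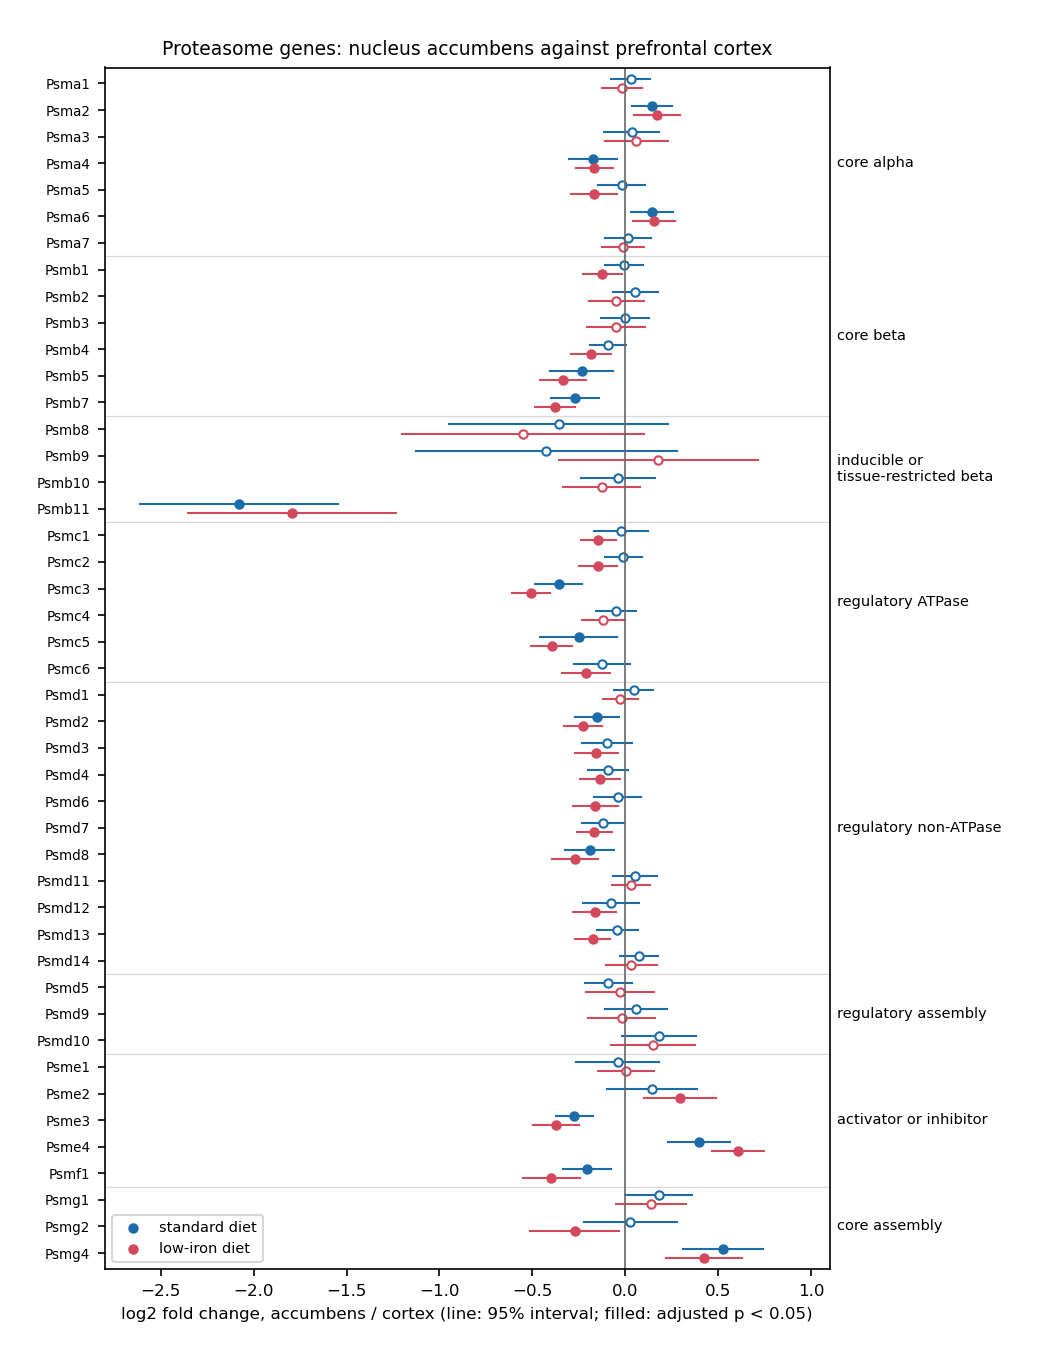
Log2 fold change of accumbens over cortex for each tested proteasome gene (points) with its 95% interval (lines), on the standard diet (blue) and after the low-iron diet (red); filled points had an edgeR adjusted p under 0.05 and genes are grouped by role. Regulatory ATPases lie left of 0 on both diets, and Psmb11 is the only gene beyond a 2-fold difference.

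Calls in the regulatory particle and the core beta ring were all toward lower levels in accumbens. They rest on TMM factors, which were 0.939 to 1.04 in cortex and 1.04 to 1.06 in accumbens on the standard diet. After the low-iron diet these were 0.910 to 0.962 and 1.04 to 1.06. Before scaling, median read shares of non-ATPase subunits were 0.167% (cortex) and 0.173% (accumbens), then 0.169% and 0.168% after the low-iron diet. For ATPases they were 0.105% and 0.101%, then 0.105% and 0.0959%. For core beta subunits they were 0.0621% and 0.0624%, then 0.0625% and 0.0583%. The particle's 17 subunits had a median log2 fold change of -0.08 on the standard diet, with 4 called lower and none higher. After the low-iron diet the median was -0.16, with 13 called lower and none higher. The calls were 23.5% and 76.5% of the 17. Of all accessions, 24% and 29% were called lower, and 23% and 30.1% higher. All 6 ATPases, which drive unfolding, had estimates below 0 on both diets, as did 49% and 47.4% of all accessions, with 2 called on the standard diet and 5 after the low-iron diet. Without cortex replicate 4, 7 of the particle's 17 subunits were called on the standard diet, and 6294 of 11647 accessions, 3176 of them lower. Of the 6 core beta subunits tested, 2 were called lower on the standard diet and 4 after the low-iron diet, and none higher, with medians of -0.05 and -0.15. Psmb2, the only core beta subunit above 0 on the standard diet, gave 0.05 and then -0.05 and was not called. The 7 core alpha subunits tested had calls in both directions, with 2 higher and 1 lower on the standard diet and 2 higher and 2 lower after the low-iron diet. Their median was 0.03 and then -0.01, and the latter turned to 0.03 with upper-quartile scaling.

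Psmc3, an ATPase of the base, differed most clearly. Its levels on the standard diet were 234, 207, 211, 192 and 219 CPM in cortex and 169, 168, 151, 167 and 168 in accumbens. After the low-iron diet they were 230, 237, 214, 216 and 220 in cortex and 154, 154, 163, 151 and 152 in accumbens. Every accumbens library lay below every cortex library on both diets. The log2 fold change was -0.36 ± 0.06 (SE; adjusted p = 0.000305, edgeR) and -0.51 ± 0.05 (adjusted p = 4.3e-08), or 0.780-fold and 0.704-fold. Psmc5, another ATPase of the ring, was also lower, by -0.25 ± 0.10 (adjusted p = 0.0477) and -0.40 ± 0.05 (adjusted p = 3.19e-06). On the standard diet the Psmc5 groups overlapped: cortex replicate 4, at 212 CPM, lay below 3 of the 5 accumbens libraries, which ran from 204 to 254. That call was lost in 8 of the 10 fits that left out a library. Psmc5 fell outside the naming rule and was chosen after its values were seen.

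Among non-ATPase subunits, Psmd8, a lid subunit, and Psmd2, a base subunit that docks ubiquitin receptors, had the lowest p. Psmd8 was lower by -0.19 ± 0.06 (adjusted p = 0.0216, edgeR) on the standard diet and by -0.27 ± 0.06 (adjusted p = 0.000679) after the low-iron diet, and Psmd2 by -0.15 ± 0.05 and -0.23 ± 0.05 (adjusted p = 0.0358 and 0.000573). The Psmd8 call on the standard diet was lost without cortex replicate 1 or replicate 5 (-0.17 in each), and the Psmd2 call in 7 of 10 such fits. Psmd14, the deubiquitinase of the lid, and Psmd11, a lid scaffold, were not called, with log2 fold changes of 0.07 and 0.05 on the standard diet and 0.03 for both after the low-iron diet. Assembly factors of the particle were also not called: Psmd5 gave -0.09 and -0.03, and Psmd10 gave 0.18 and 0.15. Without both standard-diet replicate 4 libraries Psmd10 was called, at 0.25 (adjusted p = 0.0401, edgeR).

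In the core, the 2 measured constitutive catalytic subunits were both lower in accumbens. Psmb7, the trypsin-like subunit, ran at 163, 150, 154, 130 and 153 CPM in cortex and 122, 118, 123, 128 and 128 in accumbens on the standard diet. After the low-iron diet it ran at 163, 169, 144, 152 and 161 in cortex and 120, 117, 119, 122 and 120 in accumbens. The regions did not overlap on either diet, and the log2 fold changes were -0.27 ± 0.06 and -0.38 ± 0.05 (edgeR adjusted p = 0.0025 and 3.76e-06). Psmb5, the chymotrypsin-like subunit, gave -0.23 ± 0.08 and -0.34 ± 0.06 (adjusted p = 0.0265 and 9.29e-05). The Psmb5 call on the standard diet was lost when any 1 of 6 libraries was left out, with fold changes from -0.28 to -0.19 over the 10 such fits. In the opposite direction, the alpha subunits Psma2 and Psma6 were slightly higher in accumbens, by 0.14 and 0.14 on the standard diet and 0.17 and 0.16 after the low-iron diet, while Psma4 was lower by -0.17 on both. These standard-diet calls were close to the threshold. Leaving out 1 library lost the call in 5 of 10 fits for Psma2, 6 of 10 for Psma6 and 5 of 10 for Psma4. With a replicate block Psma2 was not called (adjusted p = 0.0636), nor was Psma6, and upper-quartile scaling lost Psma4 (adjusted p = 0.0601). In the low-iron libraries the call was lost in 1 of 10 fits for Psma2 and 4 of 10 for Psma6. Psma6 was chosen after its values were seen.

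The interferon-inducible catalytic subunits were not called between regions. Psmb8 had 0.871 to 4.23 CPM in all 20 libraries and Psmb9 had 1.99 to 8.24, so their intervals were wide. The log2 fold changes on the standard diet were -0.36 for Psmb8 (95% interval -0.95 to 0.23) and -0.42 for Psmb9 (-1.13 to 0.28). Without cortex replicate 4, which held the highest Psmb9 level, they were -0.18 and -0.03. In the low-iron libraries Psmb8 gave -0.55 (-1.20 to 0.10) and Psmb9 0.18 (-0.36 to 0.71). Psmb10 was better measured, at 19 to 28.2 CPM, and gave -0.04 and -0.13, with intervals of -0.24 to 0.16 and -0.33 to 0.08. The replaced constitutive Psmb5 and Psmb7 were called lower, while their inducible counterparts Psmb8 and Psmb10 were not called. The difference between each pair was not tested. The sole member past 2-fold was Psmb11, the thymus form of the catalytic subunit, at 4.84, 5.81, 5.65, 2.67 and 5.01 CPM in cortex against 0.860, 1.17, 0.994, 1.40 and 1.25 in accumbens on the standard diet. These came from 24 to 72 reads per cortex library and 7 to 10 per accumbens library. Its log2 fold change was -2.08 ± 0.25 (edgeR adjusted p = 2.55e-05) and, after the low-iron diet, -1.79 ± 0.27 (adjusted p = 1.32e-05), and 11.4% of all accessions were called with at least 2-fold on the standard diet and 12% after the low-iron diet.

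Activators and inhibitors split by gene. Psme4, which forms the nuclear PA200 cap, was higher in accumbens. Its levels on the standard diet were 73.9, 75.5, 72.0, 92.9 and 75.9 CPM in cortex and 98.5, 96.1, 113, 105 and 98.3 in accumbens. After the low-iron diet they were 73.0, 64.8, 78.7, 80.8 and 69.9 in cortex and 110, 118, 101, 104 and 115 in accumbens. The regions did not overlap, and the log2 fold changes were 0.40 ± 0.08 and 0.61 ± 0.07 (edgeR adjusted p = 0.00112 and 3.48e-07). Psme3, the nuclear PA28 gamma activator, was lower by -0.27 ± 0.05 and -0.37 ± 0.06 (adjusted p = 0.000357 and 2.23e-05). Psmf1, an inhibitor and adaptor of the core, was lower by -0.21 and -0.40 (adjusted p = 0.0131 and 0.000123). Psme2, a subunit of the interferon-inducible PA28 cap, was called higher after the low-iron diet, by 0.30 ± 0.09 (adjusted p = 0.01), and was not called on the standard diet, at 0.14 ± 0.11. Its partner Psme1 gave -0.04 and 0.00. Without cortex replicate 4 the standard-diet value of Psme2 was 0.24 (adjusted p = 0.0428).

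Among assembly factors of the core, Psmg4 was higher in accumbens. On the standard diet it had 12.7, 11.1, 9.73, 10.5 and 11.3 CPM in cortex and 17.7, 16, 15.5, 13.8 and 16 in accumbens. The groups did not overlap. The log2 fold change was 0.53 ± 0.10 (edgeR adjusted p = 0.000894), and 0.42 ± 0.10 after the low-iron diet (adjusted p = 0.00114). Psmg2 gave 0.03 on the standard diet and -0.27 ± 0.12 after the low-iron diet (adjusted p = 0.0495), a call that was lost in 8 of the 10 fits that left out a library.

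**Figure D2:**
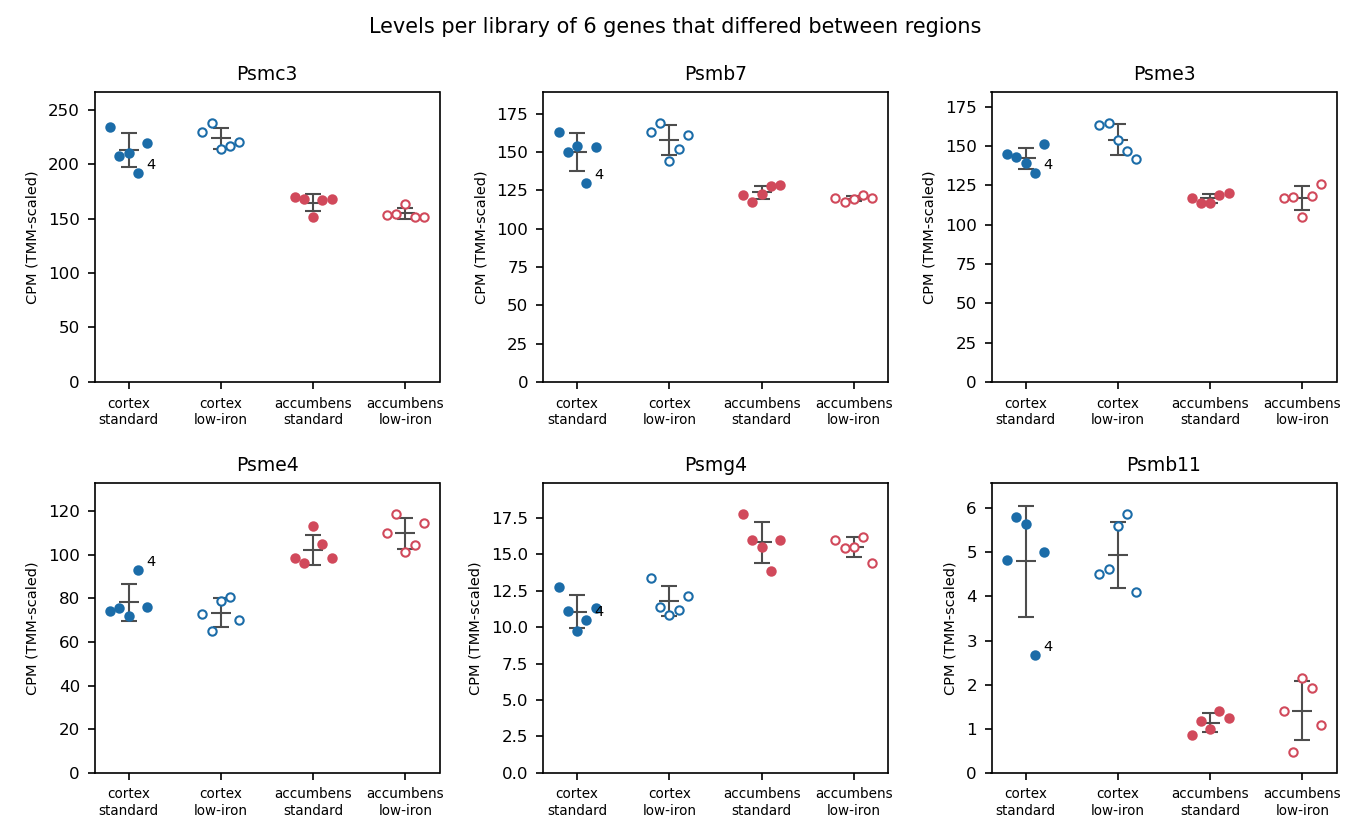
Levels per library (points, TMM-scaled CPM) of 6 genes that differed between regions, with the mean and SD of each group of 5; blue is cortex, red accumbens, filled the standard diet and open the low-iron diet, and 4 marks replicate 4 of the standard-diet cortex. Psme4 and Psmg4 are higher in accumbens and the other 4 genes lower.

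Levels of cell type markers also differed between the regions. Pan-neuronal markers summed to 1292 to 1787 CPM in cortex and 807 to 1017 in accumbens. Oligodendrocyte markers summed to 866 to 1441 in cortex and 4230 to 6509 in accumbens. All 5 pan-neuronal and all 6 oligodendrocyte markers had reads. Only 3 of the pan-neuronal markers could be tested, with 2 called lower in accumbens on the standard diet and 3 after the low-iron diet. Of the oligodendrocyte markers, 5 were called higher and 1 lower in accumbens on each diet. The part of cell makeup in the region differences of proteasome genes was not tested. Of the partners of the proteasome fixed as a list, 19 could be tested: 1 was called higher and 4 lower in accumbens on the standard diet, and 1 higher and 9 lower after the low-iron diet. These are 5 and 10 of 19, where 47% and 59.1% of all accessions were called. Ubqln4 and Rad23b, shuttles that carry ubiquitinated proteins to the proteasome, had the lowest p, at -0.53 and -0.35 on the standard diet and -0.56 and -0.44 after the low-iron diet. The other lower partners on the standard diet were Vcp, an unfolding ATPase, at -0.19 and Zfand5, a proteasome activator, at -0.18, and the higher one was the shuttle Ubqln2 at 0.28, all chosen after their values were seen. Adrm1, a ubiquitin receptor of the particle, gave 0.01 and -0.04. Pomp, the core's maturation factor, had reads in 4 of 20 libraries only and was not tested.

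The low-iron diet called no proteasome gene in either region, and the intervals on the constitutive subunits were narrow. In accumbens edgeR called 0 of 44 tested, as it did 0 of 11202 accessions (0%), and DESeq2 called 0 proteasome genes. At an unadjusted p under 0.05 there were 3 proteasome genes by either tool, against 4.05% of all accessions by edgeR. The 30 core and regulatory particle subunits had log2 fold changes of -0.12 to 0.05, and their 95% intervals ran from -0.26 to 0.19 at the widest. In cortex edgeR called 0 of 45 and 0 of 11662 accessions (0%), DESeq2 called 0 proteasome genes, and the unadjusted counts were 1 and 2 against 5.99% of all accessions by edgeR. Fold changes of the same 30 subunits were -0.05 to 0.12, with intervals from -0.17 to 0.26.

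**Figure D3:**
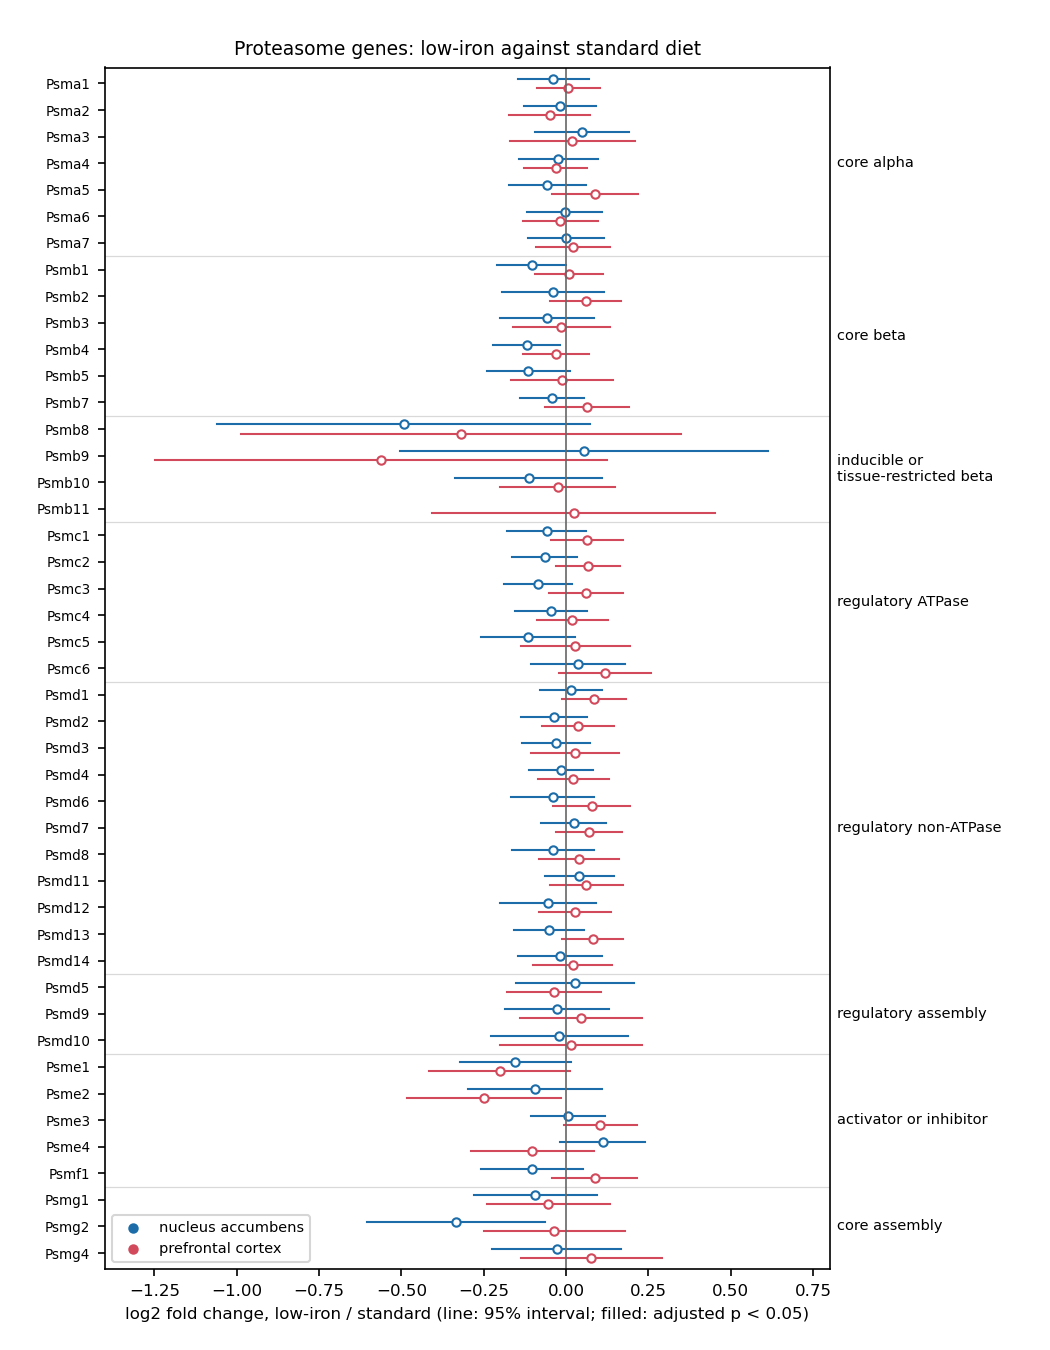
Log2 fold change of the low-iron over the standard diet for each tested proteasome gene (points) with its 95% interval (lines), in accumbens (blue) and cortex (red). All points are open because none had an edgeR adjusted p under 0.05, and the widest intervals belong to Psmb8 and Psmb9.

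In accumbens the constitutive subunits leaned slightly below 0. Of the 30, 25 had a negative estimate, against 49.2% of all accessions, with a median of -0.04, and with library size as a covariate the count was 15 of 30 and the median -0.01. Depth differed between these diet groups, as given above, and its part was not tested otherwise. Core assembly factor Psmg2 had the lowest p. Its levels were 14.3, 12.3, 17.2, 14.2 and 17.4 CPM on the standard diet and 10.9, 14.3, 11.6, 12.4 and 9.80 after the low-iron diet, so the groups overlapped, and the log2 fold change was -0.34 ± 0.13 (adjusted p = 0.972, edgeR). Psmb4, a core beta subunit, had 135, 123, 127, 131 and 126 CPM on the standard diet and 116, 113, 120, 118 and 122 after the low-iron diet. Its groups did not overlap, as was the case for 1% of all accessions, and the log2 fold change was -0.12 ± 0.05 (adjusted p = 0.972). Psmb1, another core beta subunit, gave -0.10 ± 0.05. The 3 lowest p in the upward direction belonged to Psme4, Psmd11 and Psma3, at 0.11, 0.04 and 0.05.

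Catalytic and regulatory genes of the fixed set showed no call in accumbens either. Psmb5 gave -0.11 and Psmb7 -0.04, Psmb8 -0.49 (95% interval -1.06 to 0.07), Psmb9 0.05 (-0.50 to 0.61) and Psmb10 -0.11 (-0.34 to 0.11). With library size as a covariate Psmb8 turned to 0.10 and Psmb9 to -0.07. Psme1 gave -0.15, Psme2 -0.10, Psme3 0.01 and Psmf1 -0.10.

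In cortex, the 17 subunits of the regulatory particle all had a positive estimate after the low-iron diet, from 0.02 to 0.12 with a median of 0.06, while 49.8% of all accessions were positive. No subunit was called, and Psmd13, Psmd1 and Psme3, the 3 lowest p upward, had 0.08, 0.09 and 0.10. Standard-diet cortex replicate 4 was low in these genes, with class medians of -0.20 for ATPases and -0.17 for the other particle subunits, as log2 deviations from each gene's mean over the 10 cortex libraries of both diets. Without it 15 of 17 remained positive and the median was 0.03. Core subunits showed no such lean: 7 of 13 were positive with a median of 0.01. Of 19 tested partners of the proteasome, 15 were positive, with a median of 0.06 (0.05 without that library).

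The 3 lowest p downward in cortex belonged to interferon-inducible genes, none of which passed the adjusted test. Psme2 had 20.7, 21.3, 23.5, 29.1 and 22.2 CPM on the standard diet and 18.8, 17.6, 21.7, 21.3 and 19.8 after the low-iron diet, and the log2 fold change was -0.25 ± 0.11 (edgeR adjusted p = 0.683). Psme1 had 45.7, 45.2, 44.9, 56.3 and 37.6 CPM against 38.6, 36.6, 41.4, 42.1 and 42.9, with -0.20 ± 0.10. Psmb9 had 3.85, 2.74, 3.56, 8.24 and 2.44 CPM against 2.91, 2.95, 1.99, 2.69 and 3.46, with -0.56 ± 0.32. The highest cortex value of all 3 genes was in standard-diet replicate 4, the library rich in meninges markers. That library also had the group's highest B2m (532 CPM, others at most 408) and Tap1 (12.2 CPM, others at most 8.87), both class I antigen genes. Without it the log2 fold changes were -0.15 for Psme2, -0.11 for Psme1 and -0.15 for Psmb9, and the median of 14 interferon and class I genes moved from -0.16 to -0.00457. The part of meningeal tissue in these values was not tested otherwise, and 1 of the 8 meninges markers had no reads in that group. Psmb8 gave -0.32 (95% interval -0.99 to 0.35), and -0.12 without that library. Psmb10, with 21.0 CPM in that library as the lowest of its group, gave -0.03.

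**Figure D4:**
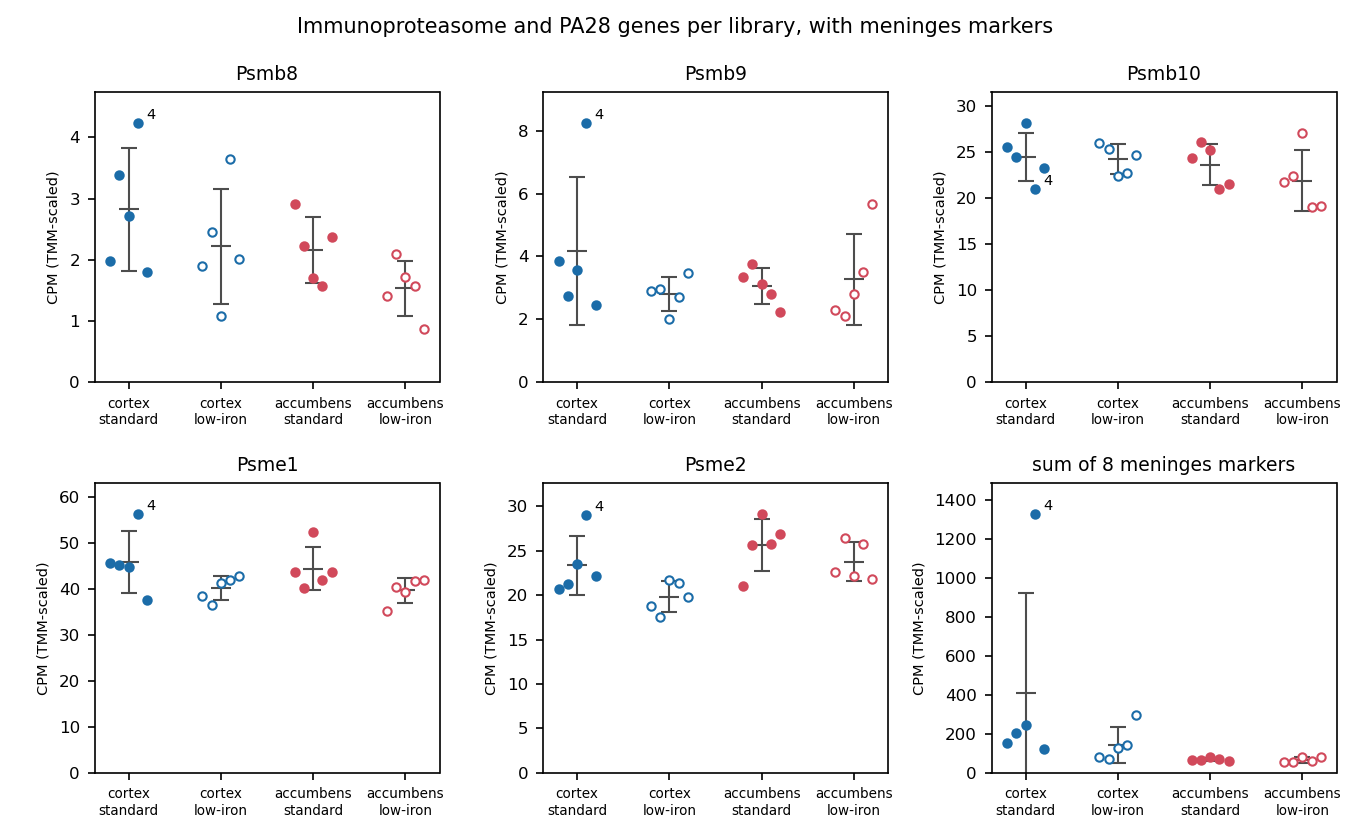
Levels per library (points, TMM-scaled CPM) of 3 immunoproteasome and 2 PA28 genes and the sum of 8 meninges markers, with group means and SD; colours and fill are as for the regional genes and 4 marks replicate 4 of the standard-diet cortex. That library is highest for Psmb8, Psmb9, Psme1 and the meninges sum, and the highest cortex library for Psme2, but lowest of its group for Psmb10.

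The other members of the fixed set in cortex were also not called. Psmb5 gave -0.01, Psmb7 0.06, Psme4 -0.10 and Psmf1 0.09. The endothelial markers, whose 9 tested accessions were all below 0 (median -0.32), stayed so without replicate 4 (median -0.29).

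The diet effect did not differ between regions for any proteasome gene at the adjusted threshold. The interaction of diet and region had 0 calls of 45 by edgeR and by DESeq2, and 0 of 11788 accessions (0%) by edgeR. At an unadjusted p under 0.05 there were 4 proteasome genes by edgeR and 3 by DESeq2, against 5.36% of all accessions by edgeR. Subunits of the particle and of the core both leaned below 0. All 17 regulatory particle subunits had an estimate below 0, from -0.16 to -0.04, against 52% of all accessions, and all 17 stayed below 0 without cortex replicate 4 and without both standard-diet replicate 4 libraries. The medians were -0.10, -0.07 and -0.07. The lean was not particular to subunits: 18 of 19 tested partners of the proteasome were below 0, with a median of -0.10. All 3 tested pan-neuronal markers were below 0, while all 12 microglia markers and all 9 tested endothelial accessions were above 0. Of the 13 core subunits 11 were below 0, with a median of -0.06, among them all 6 core beta subunits with a median of -0.12. The lowest p downward belonged to the ATPases Psmc2 (-0.15 ± 0.06) and Psmc3 (-0.16 ± 0.07) and the lid subunit Psmd13 (-0.15 ± 0.06), each with an edgeR adjusted p of 0.818. Upward they belonged to Psme4 (0.20 ± 0.10) and Psmb9 (0.60 ± 0.44). Both genes had their highest cortex value in standard-diet replicate 4, at 92.9 and 8.24 CPM. Over fits that left out 1 library the estimates ran from 0.12 to 0.23 for Psme4 and from 0.19 to 0.74 for Psmb9. Psmf1 of the fixed set (-0.21 ± 0.09, edgeR adjusted p = 0.818) also had an unadjusted p under 0.05. The rest of that set gave -0.12 for Psmb5, -0.12 for Psmb7, -0.19 for Psmb8 and -0.10 for Psmb10. Psme1 gave 0.03, Psme2 0.13 and Psme3 -0.11. The subunits share libraries and normalization, so they are not independent observations.

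Constitutive subunits varied little between libraries of a group. The median coefficient of variation of the 30 subunits was 5.97% in cortex and 4.86% in accumbens on the standard diet, and 4.83% and 3.60% after the low-iron diet. Accessions with at least 10 CPM had medians of 8.78, 8.02, 7.31 and 8.51% in the same order. The sets were not matched for level, as the subunits averaged from 34.1 CPM (Psma3) to 329 (Psmd2) over the 20 libraries. Counting error is relatively larger at low counts, and its part in this difference was not tested. The most variable subunits were Psmc5 in standard-diet cortex (13.5%), Psmd12 in standard-diet accumbens (9.83%), Psma3 in low-iron cortex (11.4%) and Psmb2 in low-iron accumbens (10.9%).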

How the data were processed

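The authors deposited read counts per RefSeq accession for each library. Tools listed in the submitters' processing notes are STAR, HTSeq, Trimmomatic 0.36.3, DESeq and DESeq2, with genome build rn6 and no role for each. Counts ignoring strand were taken, and rows that name no gene (50.8 to 60.7% of reads) were left out. The authors' deposited tables supplied symbols, and their log2 fold changes, test statistics (score) and p-values were not used. Strand could not separate a gene from an antisense partner.

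Counts were tested in R 4.3.3 with edgeR 4.0.16 (quasi-likelihood F test, TMM, robust dispersions, filterByExpr with a minimum count of 10). Benjamini-Hochberg adjustment ran over all accessions tested. Each comparison used its 2 groups, and the interaction all 20 libraries. DESeq2 1.42.0, other scalings, a library-size covariate and leaving out each library were alternatives. The limit of 3 reads covers counting error alone. Transcript lengths were not used, so levels are not compared between genes. No pair of libraries within a group agreed within sampling noise (closest chi-square per degree of freedom 1.97, 40 pairs).

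Genes were named by rule: the lowest p of each role in each direction between regions, the 3 lowest p in each direction for diet and the interaction, and Psmb5, Psmb7, Psmb8 to Psmb10, Psme1 to Psme4 and Psmf1 throughout. Members, lists and tests were chosen with earlier results of these data known. One gene of the interferon and antigen-processing list is not reported here. The scripts were tested on simulated data.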

Additional observations from a re-analysis of the deposited data

Results flagged for a closer look

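A library was flagged where its gap to the nearest other library of its group of 5 exceeded 0.71 of the group's range, among 30 named genes in 4 groups. This gave 12 flags in 120 checks, where chance flags about 1 in 20. Standard-diet cortex replicate 4 carried 4 of them: Psmb9 at 8.24 CPM (next highest 3.85), Psme4 at 92.9 (75.9), Psmd1 at 223 as the lowest (next 250) and Psmd2 at 311 as the lowest (next 350). Other high values in cortex were Psmb1 at 144 CPM in standard-diet replicate 1 (130), Psmd5 at 40.2 in standard-diet replicate 5 (37.4) and Psmd2 at 388 in low-iron replicate 2 (356). Psmb4 was lowest at 123 CPM in low-iron cortex replicate 3 (next 138). In accumbens, Psma3 was 37.7 CPM in standard-diet replicate 1 (33.1), Psme1 was 52.4 in standard-diet replicate 3 (43.8), and Psmc3 was lowest at 151 in that same library (next 167). Psmc3 was highest at 163 CPM in low-iron replicate 3 (154).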

How the results depend on the processing

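No setting gave a diet or interaction call among proteasome genes. Between regions on the standard diet, leaving out 1 library gave 8 to 18 calls in all, 2 to 5 higher and 5 to 13 lower. The count was 8 without cortex replicate 3 or 5 or accumbens replicate 5, 9 without cortex replicate 1 and 18 without cortex replicate 4. Counts over all accessions in these fits are given with the region results. Without the count filter 2 were higher, as were 2681 of 15081 accessions. After the low-iron diet the range was 3 to 5 higher. It was 3 without accumbens replicate 4, where 3210 of 11291 accessions were called higher. Upper-quartile scaling left 15 lower, against 2955 of 11220 accessions, and put the core alpha median at 0.0251. The 4 inducible or tissue-restricted beta subunits, which include Psmb11, had a median between regions on the standard diet of -0.39. It ran from -0.514 to -0.129 over single libraries (-0.129 without cortex replicate 4). Without both replicate 4 libraries, an alternative chosen after seeing the data, it was -0.0716. For diet in accumbens, where Psmb11 was not tested and 3 of the 4 remained in the main fit, the class median ran from -0.212 to 0.0341. In that comparison the library-size covariate moved the medians of the particle's assembly factors to 0.108 and of its non-ATPases to 0.0159.

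Some estimates changed sign, and not all of them were near 0. In the main fit for diet in accumbens Psmb8 was -0.493 and Psmb5 -0.115, and the Psmb8 interaction was -0.195. Psme1 between regions was 0.0607 on the standard diet without both replicate 4 libraries (-0.104 to 0.0423 over single libraries), and after the low-iron diet -0.00805 with RLE factors, -0.0082 with DESeq2, -0.00641 unfiltered and -0.0109 with all 4 groups in one fit (-0.0352 to 0.0352). Its interaction was -0.0715 without both (-0.0535 to 0.0935). Psmd5 after the low-iron diet was 0.00637 with upper-quartile scaling (-0.0734 to 0.00935). In accumbens the covariate gave 0.000175 for Psmb5, 0.105 for Psmb8, -0.0732 for Psmb9 and -0.00374 for Psme3, which was -0.00241 with upper-quartile scaling. Psmb5 for diet in cortex was 0.00274 with all 4 groups (-0.059 to 0.033). Over single libraries alone, signs changed for Psmb10 between regions (-0.0824 to 0.0153) and for diet in cortex (-0.0659 to 0.0288), Psmb9 between regions after the low-iron diet (-0.0928 to 0.308) and for diet in accumbens (-0.212 to 0.188), Psme3 for diet in accumbens (-0.0225 to 0.0404) and the Psmb8 interaction (-0.389 to 0.0618). The cause was not tested.

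The labels do not say whether libraries with the same number share an animal. Same-numbered pairs did not all correlate above 0.1 in any contrast, so the samples were not treated as paired, although a library correlated best with its own number in 6 of 10 pairs between regions and 2 of 10 between diets, a hint from the data and not the design. With a replicate block, 10 genes were called between regions on the standard diet, 2 of them higher, and 27 after the low-iron diet. Of all accessions, the block called 5188 of 11612 (2514 higher) and 6818 of 11220. Psmb6 and Psma8 had 11 and 59 reads over all libraries, too few to test, and Psmb8, Psmb9 and Psmb11 had 372 to 537.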

Other observations

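Psmc3ip, matched by symbol only, was higher in accumbens after the low-iron diet by 0.51 ± 0.14 on the log2 scale (edgeR adjusted p = 0.00548) and gave 0.26 ± 0.14 on the standard diet (adjusted p = 0.151). Of 14 tested genes of interferon signalling and class I antigen processing, 3 were lower in accumbens on the standard diet (Stat2, Calr and Irf1), against 24% of all accessions. After the low-iron diet the lower ones were Stat2, Calr and Canx, and the list's full count of calls is not given. Stat2, a mediator of interferon signalling, gave -0.33 and -0.40, and the chaperone Calr gave -0.24 on both. Irf1 at -0.50 and Canx were chosen after their values were seen. Of 12 microglia markers, 0 were called between regions on the standard diet, where 23% of all accessions were called higher and 24% lower, and 6 were higher in accumbens after the low-iron diet, against 30.1% of all accessions. Their diet effects were not called in either region.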
